A study of Mus musculus with 50 samples.

Results

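The adenylyl cyclases, the enzymes that make cyclic AMP (cAMP) from ATP, were followed in RNA of the mouse nucleus accumbens (NAc), the ventral part of the striatum. The 8 genes Adcy1, Adcy2, Adcy3, Adcy5, Adcy6, Adcy7, Adcy8 and Adcy9 were taken by symbol from the 24552 genes of each of 2 count tables, and all 8 passed the filter on low counts in every model. All mice were of the C57BL/6 strain and carried RiboTag (RT), an allele of the ribosomal protein gene Rpl22 that gains an HA tag in cells with Cre, together with D1-Cre or D2-Cre. Antibody to HA pulls down (IP) ribosomes with their mRNA from the Cre-bearing cells, which the labels call D1- or D2-MSNs (medium spiny neurons), while the input is RNA of the whole NAc homogenate. Mice 8 to 12 weeks old were either kept without defeat (Con) or met an aggressive CD1 male for 10 min a day over up to 10 days, as the labels have it (the study's methods give a shorter daily time), and were then sorted by social interaction into resilient (Res) and susceptible (Sus). The IPs numbered 4 D1 Con, 4 D1 Res, 5 D1 Sus and 5 each of D2 Con, D2 Res and D2 Sus, and each line and stress group had 3 inputs. A further 4 D1 Con IPs, labelled Sirt1-KO, came from males that also carried a Sirt1-floxed allele, and for them the labels give no age. Each library pooled 2 mice, so p-values measure the spread between pools, and no group lacked the RiboTag allele and Cre. Cre follows the D1 or D2 receptor gene here, and the D2 receptor is also made by cholinergic interneurons.

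Membrane adenylyl cyclases answer to G proteins: a stimulatory α subunit turns them on, and the forms differ in what else they read. Adcy1 and Adcy8 encode forms that calcium with calmodulin stimulates. Adcy2 and Adcy7 encode forms that the βγ subunits of G proteins stimulate further, and Adcy5 and Adcy6 encode forms that inhibitory α subunits and calcium restrain. Adcy3 is best known from olfactory neurons and neuronal cilia, and Adcy9 encodes the form least sensitive to forskolin. In the striatum, Adcy5 is the main cyclase of medium spiny neurons, where D1 receptors raise and D2 receptors lower cAMP.

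Gene positions are those of GENCODE vM21 on GRCm38, the assembly also called mm10. All 8 are protein-coding genes: Adcy1 at chr11:7063489-7178506 (+ strand), Adcy2 at chr13:68620043-68999541 (-), Adcy3 at chr12:4133103-4213525 (+), Adcy5 at chr16:35154877-35305738 (+), Adcy6 at chr15:98589973-98610076 (-), Adcy7 at chr8:88272403-88329962 (+), Adcy8 at chr15:64697084-64922296 (-) and Adcy9 at chr16:4287529-4420498 (-). Exons of Adcy3 share 1380 bases, 22.1% of its exon length, with Cenpo on the opposite strand, which is counted too. Exons of Adcy6 and Adcy2 share 605 bases (8.92%) and 189 bases (4.49%) with the antisense genes Gm29331 and Gm35161, which are not in the count tables. The libraries came from a stranded kit, but whether strand was used in counting is not given in the sources used here, so reads in shared exons may belong to either gene.

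RefSeq (GRCm38.p6) gave start sites for 6 of the genes, in 9 windows of the 250 bases before a start. Windows of Adcy2, Adcy5 and Adcy7 are shown because these genes carried the difference between D1 and D2 IPs, the highest level, and the difference in libraries labelled Sirt1-KO. The Adcy2 window lies at chr13:68999542-68999791 (- strand), the Adcy5 window at chr16:35154614-35154863 (+) and the Adcy7 window, the first of 3 for that gene, at chr8:88282742-88282991 (+). Each is written 5′ to 3′ on the strand of the gene. The Adcy7 window shown lies inside the GENCODE span of that gene, past its start there. Capitals mark the GC box GGGCGG or CCGCCC and the core TGACG or CGTCA of the cAMP response element (CRE), the site of the cAMP-regulated factor CREB.
Adcy2: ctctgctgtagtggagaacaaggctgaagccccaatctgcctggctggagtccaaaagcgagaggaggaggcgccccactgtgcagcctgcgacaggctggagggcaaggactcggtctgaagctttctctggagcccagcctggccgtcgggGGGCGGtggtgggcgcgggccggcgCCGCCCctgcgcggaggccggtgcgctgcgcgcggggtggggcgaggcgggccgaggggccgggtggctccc
Adcy5: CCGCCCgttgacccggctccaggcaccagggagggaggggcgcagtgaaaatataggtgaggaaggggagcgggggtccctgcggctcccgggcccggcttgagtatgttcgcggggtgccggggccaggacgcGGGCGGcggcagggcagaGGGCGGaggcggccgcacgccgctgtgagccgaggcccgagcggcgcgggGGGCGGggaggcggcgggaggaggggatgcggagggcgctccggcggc
Adcy7: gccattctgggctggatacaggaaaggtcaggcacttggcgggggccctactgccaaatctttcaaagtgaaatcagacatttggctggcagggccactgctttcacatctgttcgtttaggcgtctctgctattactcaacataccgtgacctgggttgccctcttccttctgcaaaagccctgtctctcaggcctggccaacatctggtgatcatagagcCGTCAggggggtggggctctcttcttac
The whole CRE, TGACGTCA, was in 0 of the 9 windows, against 1.55% of 32851 mouse windows of the same length. Its core, searched on both strands and counted also within a whole CRE, was in 2 of the 9, the Adcy7 window shown (28 bases before the start) and the Adcy9 window (24 bases before), against 17.8% of all windows. A GC box was in 6 of the 9 windows, against 32.7% of all windows. The Adcy5 window held 4 GC boxes at 78.0% G and C, the Adcy2 window held 2 at 73.2%, and the Adcy7 window shown held 0 at 54.0%. Of the Adcy7 windows not shown, neither held the core, and the last held 1 GC box. A match or its absence in these letters says nothing about binding in these neurons.

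Depth ran from 21591075 to 31009626 counts on genes in the 28 IPs and from 18384265 to 28179940 in the 18 inputs. The 4 libraries labelled Sirt1-KO held 22174187 to 31785984. The lines carried the marks of their labels: Drd1 was 1.31, 1.32 and 1.27 higher (log2) in D1 than in D2 IPs of the Con, Res and Sus groups, and Drd2 was lower (-1.77, -1.75 and -1.94). All markers of medium spiny neurons were present, and the 5 of that list shared by both types were lower in D1 than in D2 IPs of Con (5 of 5 called, median log2 difference -0.40). The IPs also differed in markers of other cells. The summed level of 3 genes of cortical excitatory neurons (Slc17a7, Neurod6, Tbr1) ran from 367 to 1316 normalized counts scaled to library size (CPM) in D1 IPs (median 701), from 19.9 to 284 in D2 IPs (median 182) and from 66.4 to 1038 in inputs (median 480.4). No marker of that list had a mean of 0 in any of these classes, and the D1 and D2 ranges did not overlap. The sum over 5 genes of cholinergic interneurons ran from 11.0 to 36.7 CPM in D1 IPs and from 70.0 to 135 CPM in D2 IPs. In bulk RNA, fewer cells of a type and less RNA per cell cannot be told apart.

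Adcy5 was by far the most abundant of the 8 cyclases in every class of library. Per kilobase (kb) of exon, its level was 168 ± 17.0 CPM per kb (SD, n = 13) in D1 IPs, 194 ± 12.5 (SD, n = 15) in D2 IPs and 108 ± 11.9 (SD, n = 18) in inputs. That was 6.54, 7.86 and 3.86 times the mean level of the next gene. Adcy5 held 62.6% ± 3.50 (SD, n = 13) of the summed level of the 8 genes in D1 IPs, 70.2% ± 1.42 (SD, n = 15) in D2 IPs and 54.7% ± 4.61 (SD, n = 18) in inputs. In D1 IPs this share overlapped both other classes, ranging from 54.8% to 70.3%. It ranged from 67.3% to 72.4% in D2 IPs and from 44.8% to 63.9% in inputs, which did not overlap each other.

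Behind Adcy5 came the same 4 genes in each class, in a different order. In D1 IPs they were Adcy1 at 25.7 ± 3.96, Adcy9 at 25.0 ± 1.81, Adcy2 at 23.3 ± 2.59 and Adcy3 at 19.6 ± 1.31 CPM per kb (SD, n = 13). Each of these neighbours overlapped the next over the 13 libraries. Within a library, Adcy1 was above Adcy9 in 8 of 13, Adcy9 above Adcy2 in 8 and Adcy2 above Adcy3 in 12. In D2 IPs the order was Adcy9 at 24.6 ± 1.77, Adcy3 at 19.9 ± 0.806, Adcy1 at 18.4 ± 2.87 and Adcy2 at 14.3 ± 1.09 CPM per kb (SD, n = 15), again with each range overlapping the next. Within a library, Adcy9 was above Adcy3 in 15 of 15, Adcy3 above Adcy1 in 11 and Adcy1 above Adcy2 in 13. In inputs it was Adcy1 at 27.8 ± 7.14, Adcy2 at 24.1 ± 2.25, Adcy9 at 17.0 ± 1.00 and Adcy3 at 10.8 ± 0.486 CPM per kb (SD, n = 18), where Adcy1 and Adcy2 overlapped and the others did not.

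Adcy6, Adcy8 and Adcy7 were low. Adcy6, the closest relative of Adcy5, stood at 3.96 ± 0.593 CPM per kb in D1 IPs, 3.37 ± 0.539 in D2 IPs and 6.19 ± 0.586 in inputs. Adcy8 stood at 1.58 ± 0.190, 1.02 ± 0.230 and 1.77 ± 0.381, and Adcy7 at 0.602 ± 0.166, 0.492 ± 0.223 and 1.22 ± 0.441 in the same order. The ranges of Adcy8 and Adcy7 overlapped in D2 IPs and in inputs but not in D1 IPs. Within a library, Adcy8 was above Adcy7 in 15 of 15 D2 IPs and 18 of 18 inputs. Adcy7 rested on 42 to 228 counts per IP and Adcy5 on 26221 to 42009, so counting error weighs most on Adcy7.

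**Figure D1:**
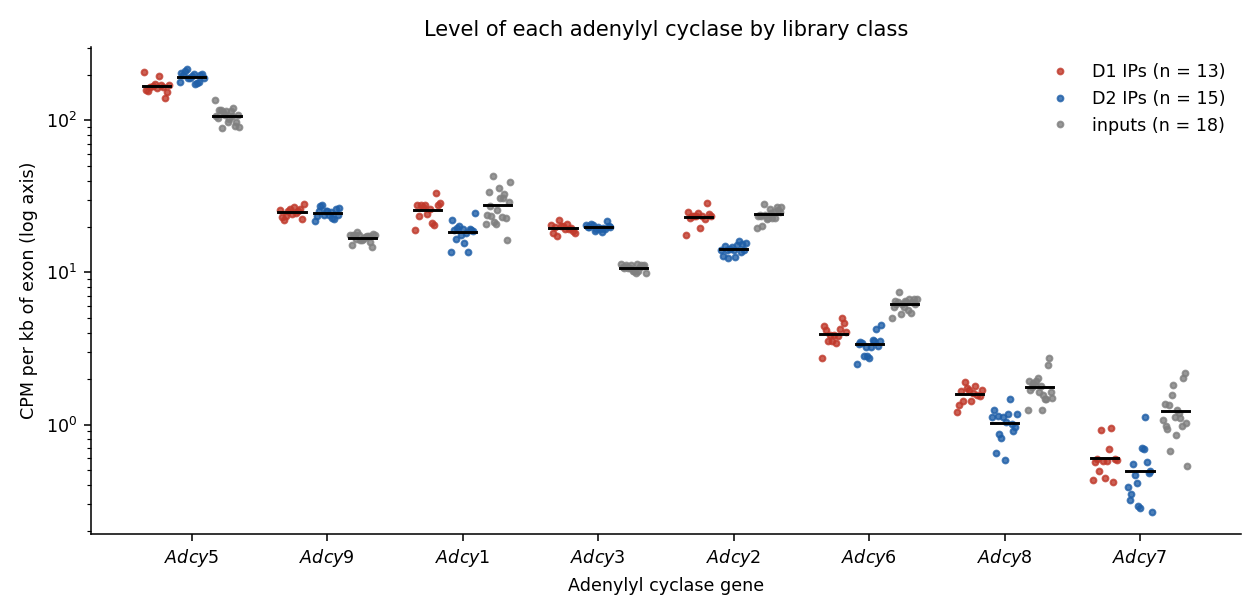
Level of each cyclase per library in CPM per kb of exon (log axis), for 13 D1 IPs (red), 15 D2 IPs (blue) and 18 inputs (grey); black bars are means. Adcy5 stands between 89.4 and 216 CPM per kb, above every other cyclase in each library, and Adcy7 is the lowest on average.

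The first question was which cyclases differ between D1 and D2 IPs of the same stress group. Adcy2 was higher in D1 IPs in all 3 stress groups, by 1.60 to 1.62 times, and was the gene with the clearest separation. Adcy1 and Adcy8, the calcium-stimulated forms, were higher in D1 IPs of the Res and Sus groups, and Adcy5 was lower in D1 IPs of the Con and Sus groups. At an adjusted p under 0.05, 2 of 8 cyclases were called in Con, 3 in Res and 4 in Sus, against 14.0%, 17.5% and 17.6% of the 14224 genes tested. With the study's added limit of a fold change over 1.5 the counts were 1, 2 and 1, against 4.98%, 5.52% and 5.55%. The median log2 difference of the 8 was 0.28, 0.30 and 0.14, and that of all genes was -0.01, -0.01 and -0.02.

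Adcy2 read 73.9, 106, 96.3 and 98.4 CPM in D1 Con, 99.2, 99.3, 104 and 83.0 CPM in D1 Res, and 98.5, 94.8, 120.2, 102 and 98.7 CPM in D1 Sus. In D2 IPs it read 58.8, 54.1, 62.5, 59.5 and 52.0 CPM (Con), 60.4, 61.5, 59.3, 53.4 and 64.1 CPM (Res), and 67.8, 57.3, 64.4, 59.5 and 66.0 CPM (Sus). All 13 D1 IPs stood above all 15 D2 IPs, and the lowest D1 library was replicate 1 of D1 Con. How many of all genes separate in this way was not counted, here or in the comparisons that follow. The log2 difference was 0.69 ± 0.09 (SE, adjusted p = 1.57e-06) in Con, 0.68 ± 0.09 (adjusted p = 1.83e-06) in Res and 0.69 ± 0.08 (adjusted p = 3.82e-07) in Sus by edgeR's quasi-likelihood test.

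Adcy1 read 237, 347, 292 and 348 CPM in D1 Con against 171, 275, 239.7, 207 and 245 CPM in D2 Con, and these groups overlapped. In the Res group it read 339, 347, 301 and 325 CPM in D1 against 252, 220.3, 242, 196 and 226 CPM in D2, with no overlap. In the Sus group it read 265, 256, 418, 349 and 358 CPM in D1 against 169, 242, 236, 235 and 307 CPM in D2, with overlap. The log2 differences were 0.41 ± 0.14 (adjusted p = 0.0536), 0.52 ± 0.14 (adjusted p = 0.0124) and 0.45 ± 0.14 (adjusted p = 0.0208). The Sus call was lost without replicate 3 of D1 Sus (adjusted p = 0.0974) or replicate 1 of D2 Sus (adjusted p = 0.0657), and in a fit to the compared libraries alone (adjusted p = 0.0540). Con was called without replicate 1 of D1 Con (adjusted p = 0.0144) or replicate 2 of D2 Con (adjusted p = 0.0290). It was called also with all genes of at least 1 count (adjusted p = 0.0445), with a mean of 50 counts (adjusted p = 0.0462) and in the fit to the compared libraries alone (adjusted p = 0.0428).

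Adcy8 read 9.92, 11.0, 13.5 and 11.6 CPM in D1 Con against 9.18, 10.1, 5.27, 9.28 and 7.10 CPM in D2 Con. It read 15.4, 14.2, 13.8 and 11.6 CPM in D1 Res against 6.66, 9.15, 4.77, 8.47 and 9.59 CPM in D2 Res. In the Sus groups it read 13.2, 14.7, 12.8, 12.5 and 13.7 CPM against 12.0, 8.25, 7.37, 7.86 and 9.56 CPM. The Con groups overlapped, while every D1 library of the Res and Sus groups lay above every D2 library of the same group. As for Adcy1 in Res, the share of all genes without such overlap was not counted. The log2 differences were 0.48 ± 0.17 (adjusted p = 0.0611), 0.82 ± 0.17 (adjusted p = 0.00117) and 0.55 ± 0.16 (adjusted p = 0.0169). The Sus call was lost without replicate 3 of D2 Sus (adjusted p = 0.0519), and Con was called without replicate 1 of D1 Con (adjusted p = 0.0436) or replicate 2 of D2 Con (adjusted p = 0.0402), and by DESeq2 (adjusted p = 0.0356).

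Adcy5 read 1483, 1135, 1118 and 1190 CPM in D1 Con against 1290, 1461, 1422, 1512 and 1551 CPM in D2 Con, where replicate 1 of D1 Con alone reached into the D2 range. In the Res group it read 1200, 1236, 1179 and 1396 CPM against 1364, 1362, 1413, 1441 and 1248 CPM, which overlapped. In the Sus group it read 1224, 1182, 1002, 1111 and 1228 CPM against 1266, 1287, 1425, 1456 and 1367 CPM, so that every D1 library was lower. Again, the share of all genes that separate so was not counted. The log2 differences were -0.25 ± 0.08 (adjusted p = 0.0275), -0.14 ± 0.08 (adjusted p = 0.229) and -0.26 ± 0.07 (adjusted p = 0.0101). The Con call was lost without any single one of replicates 2, 3 or 4 of D1 Con or replicates 4 or 5 of D2 Con (adjusted p from 0.0643 to 0.127), and in a fit to the compared libraries alone (adjusted p = 0.0638).

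Adcy3, Adcy6, Adcy7 and Adcy9 were not called in any of the 3 groups. The 95% intervals of the log2 difference in Con ran from -0.22 to -0.01 for Adcy3, from -0.01 to 0.49 for Adcy6, from -0.34 to 0.97 for Adcy7 and from -0.23 to 0.05 for Adcy9. The interval of Adcy7, the gene of fewest counts, was the widest. Without replicate 1 of D1 Con, Adcy6 was called in Con (log2 difference 0.36, adjusted p = 0.0312). Whether the D1 against D2 difference itself varied with stress is the interaction described further on.

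The inputs of the D1 and D2 lines, which hold all cells, gave 0 called cyclases of 8 by edgeR at an adjusted p under 0.05, against 0.0199% of 15063 genes. At an unadjusted p under 0.05, where the share of all genes was not counted, edgeR also gave 0. DESeq2 gave 0 at the adjusted limit, with 14 of all genes called. With 1 input left out, the unadjusted p of edgeR went as low as 0.00217 for Adcy2 and 0.0173 for Adcy5. Their lowest adjusted p was 0.385 and 0.463. Adcy2, the leading gene of the IP comparison, was not higher in D1-line inputs, with a log2 difference of -0.12 ± 0.06 (adjusted p = 0.958, 95% interval -0.23 to 0.00).

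**Figure D2:**
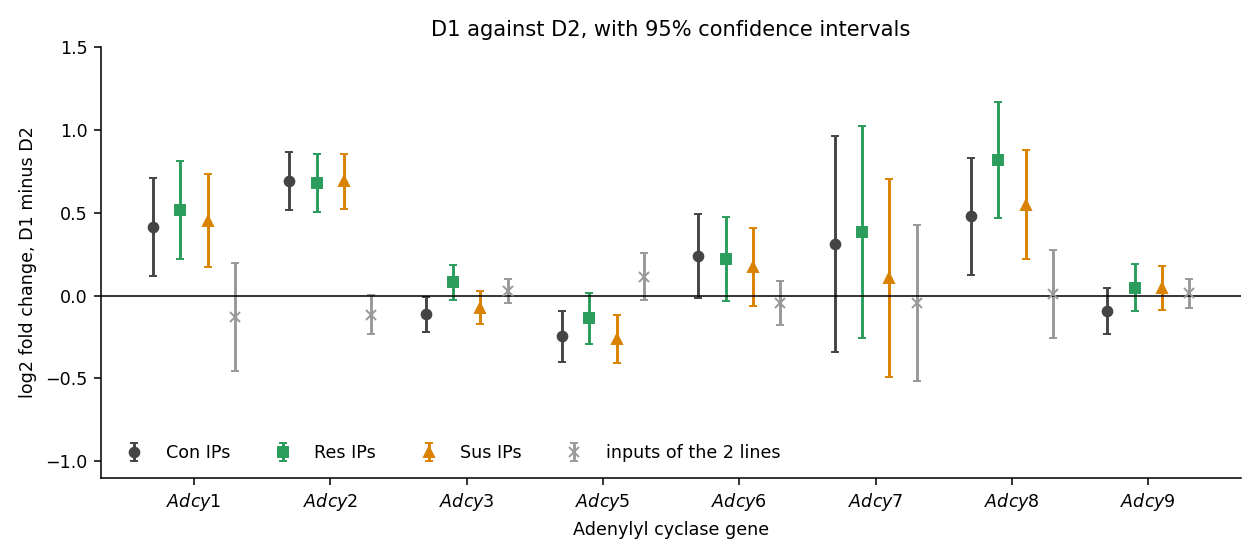
Log2 fold change between D1 and D2 for each cyclase, with 95% confidence intervals, in Con (black), Res (green) and Sus (orange) IPs and between the inputs of both lines (grey crosses). Adcy2 lies at 0.69, 0.68 and 0.69 in the IPs and at -0.12 in the inputs.

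Markers of cortical excitatory neurons moved with this comparison: 3, 2 and 3 of the 3 genes were higher in D1 IPs of the Con, Res and Sus groups at an adjusted p under 0.05. To show how the cyclases moved with them, levels on the log2 scale were related over the libraries of a class, in 108 relations with a permutation test (100000 permutations) and Benjamini-Hochberg adjustment. Over the 13 D1 IPs, Adcy2 rose with the summed cortical markers (Pearson r = 0.96, adjusted p = 0.00027, Spearman rho = 0.91, adjusted p = 0.00151), and r was 0.90 without the 2 libraries farthest from the median. Over the 15 D2 IPs the relation of Adcy2 with the markers was weak (r = -0.02, adjusted p = 0.964, rho = 0.26, adjusted p = 0.559). Adcy5 fell with the markers in D1 IPs (r = -0.90, adjusted p = 0.0018, rho = -0.72, adjusted p = 0.0530, r = -0.72 without 2 libraries). Adcy6 rose with them there (r = 0.85, adjusted p = 0.00405, rho = 0.70, adjusted p = 0.0647, r = 0.59 without 2 libraries). By rank, neither passed.

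Adcy1 had a positive relation with the cortical markers in every class, past adjustment by rank in inputs alone. It gave r = 0.72 (adjusted p = 0.0309, rho = 0.73, adjusted p = 0.0530) in D1 IPs, where it rested on the 2 farthest libraries (r = 0.35 without them). It gave r = 0.79 (adjusted p = 0.00424, rho = 0.68, adjusted p = 0.0530) in D2 IPs and r = 0.94 (adjusted p = 0.00027, rho = 0.98, adjusted p = 0.00054) in the 18 inputs. Without the 2 farthest libraries r was 0.67 in D2 IPs and 0.96 in inputs. Adcy7 moved the other way in D2 IPs (r = -0.84, adjusted p = 0.00121, rho = -0.72, adjusted p = 0.0347) and in inputs (r = -0.80, adjusted p = 0.00121, rho = -0.80, adjusted p = 0.00151). These r were -0.62 and -0.85 without 2 libraries. The part of cortical RNA in the D1 against D2 differences was not tested.

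Among the cyclases themselves, Adcy5 and Adcy6 ran opposite to each other in D1 IPs (r = -0.92, adjusted p = 0.000648, rho = -0.88, adjusted p = 0.00297, r = -0.78 without 2 libraries) and in inputs (r = -0.81, adjusted p = 0.00121, rho = -0.81, adjusted p = 0.00151, r = -0.66 without 2 libraries). Adcy2 and Adcy5 did so in inputs (r = -0.92, adjusted p = 0.00027, rho = -0.92, adjusted p = 0.00054, r = -0.86 without 2 libraries). In all, 6 of 84 pairs of cyclases passed by both measures, 1 in D1 IPs, 0 in D2 IPs and 5 in inputs. Within a class, relations of other genes with each other or with the cortical markers were not tested. None of these relations is therefore shown to be particular to cyclases.

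**Figure D3:**
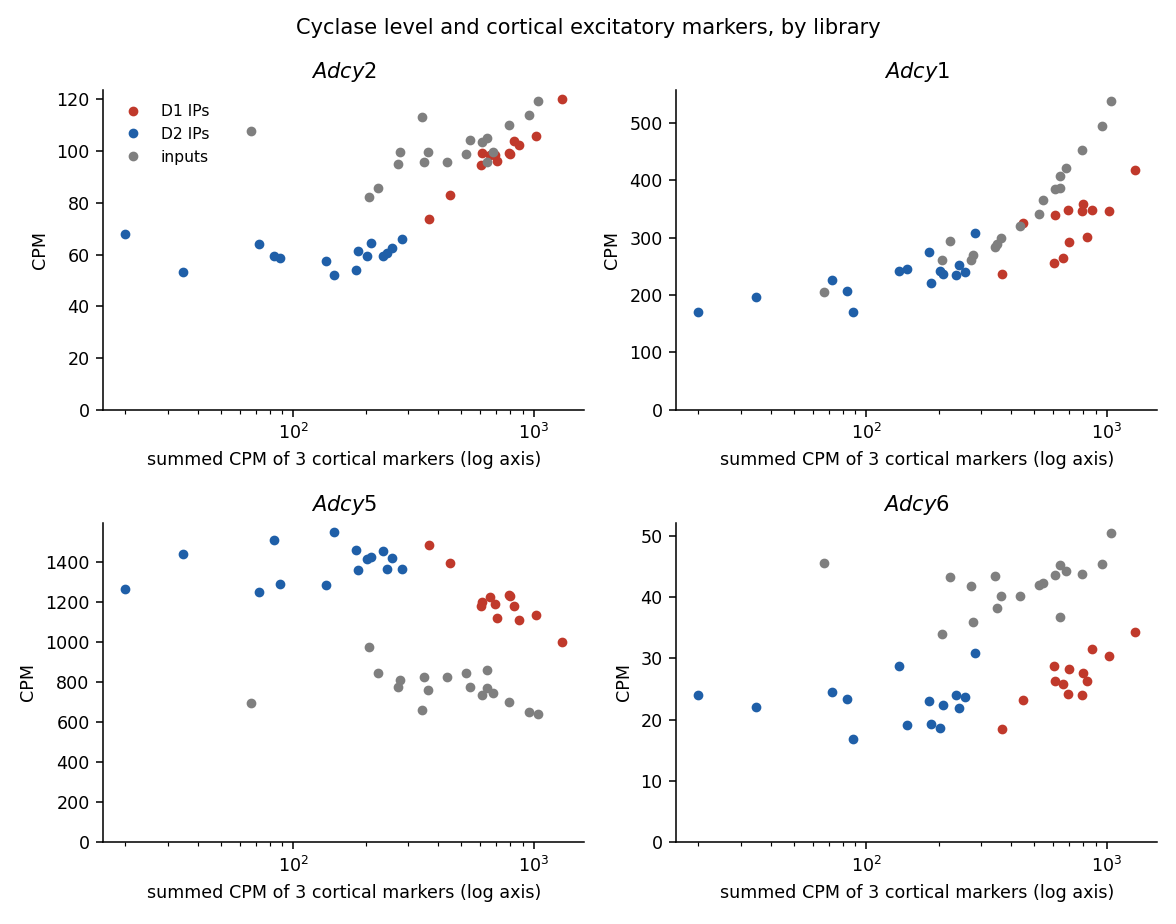
CPM of Adcy2, Adcy1, Adcy5 and Adcy6 (y axes from 0) against the summed CPM of 3 cortical excitatory markers (log axis) in each of 13 D1 IPs (red), 15 D2 IPs (blue) and 18 inputs (grey). D1 IPs lie from 367 to 1316 and D2 IPs from 19.9 to 284 on the x axis, with no overlap.

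The second question was whether defeat shifted the cyclases within a cell type. Following the study, genes were called here at an unadjusted p under 0.05. In D1 IPs, 0 of 8 cyclases were called for Sus against Con, Res against Con or Sus against Res by edgeR, against 5.34%, 2.11% and 4.23% of all genes. At an adjusted p under 0.05 the counts were 0 of 8 too, against 0, 0.00703% and 0 of all genes. DESeq2 gave 0, 0 and 1 at the unadjusted limit. The nearest was Adcy6, with log2 changes of 0.22 ± 0.12 (95% interval -0.03 to 0.47, adjusted p = 0.846) for Sus against Con and 0.24 ± 0.12 (-0.01 to 0.49, adjusted p = 0.999) for Sus against Res. The leading genes of the D1 against D2 comparison did not pass either, with Adcy2 at 0.13 ± 0.08 and Adcy5 at -0.10 ± 0.08 for Sus against Con. Without replicate 2 of D1 Con, Adcy2 (0.20) and Adcy6 (0.33, adjusted p = 0.854 for both) passed the unadjusted limit for Sus against Con, and Adcy6 did so also without replicate 3 of D1 Con (0.28) or replicate 1 of D1 Sus (0.27). For Sus against Res, Adcy6 passed without replicate 1 (0.29) or 5 (0.27) of D1 Sus, and Adcy3 without replicate 1 (-0.11). For Res against Con, Adcy3 passed without replicate 1 (0.15) or 3 (0.13) of D1 Con or replicate 4 of D1 Res (0.14), and Adcy9 without replicate 1 of D1 Con (0.16). None of these had an adjusted p under 0.795.

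In D2 IPs, Adcy6 was higher in Sus than in both other groups at the unadjusted limit. It read 16.9, 23.1, 23.6, 23.4 and 19.2 CPM in D2 Con, 21.9, 19.2, 18.6, 22.0 and 24.5 CPM in D2 Res, and 24.0, 28.8, 22.4, 24.1 and 30.8 CPM in D2 Sus. Replicates 2 and 5 of D2 Sus were the high ones, and the groups overlapped. The log2 change was 0.29 ± 0.12 for Sus against Con (95% interval 0.05 to 0.53, adjusted p = 0.999) and 0.29 ± 0.12 for Sus against Res (0.05 to 0.53, adjusted p = 0.99998), so neither passed adjustment over all genes. The first call was lost without replicate 1 of D2 Con (0.22), replicate 2 of D2 Sus (0.25) or replicate 5 of D2 Sus (0.23). The second was lost without replicate 3 of D2 Res (0.25), replicate 2 of D2 Sus (0.25) or replicate 5 of D2 Sus (0.23). Adcy7 passed for Sus against Con without replicate 5 of D2 Sus (0.69, adjusted p = 0.978). Adcy6 was the 1 cyclase of 8 called in each, against 3.68% and 1.66% of genes, while Res against Con gave 0 of 8 against 3.02%. At an adjusted p under 0.05, 0 of 8 were called in the 3 comparisons, against 0, 0 and 0 of all genes.

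The change of Adcy6 in Sus against Con was not shown to differ between D1 and D2 IPs, with a difference of -0.07 ± 0.17 (95% interval -0.41 to 0.28, adjusted p = 0.9999) in the interaction test. For Sus against Con, 0 of 8 cyclases had a called interaction (1.82% of genes), for Res against Con 1 of 8 (2.36%) and for Sus against Res 1 of 8 (2.03%). At an adjusted p under 0.05 these were 0 of 8 each, against 0, 0 and 0 of all genes.

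The called gene was Adcy3 in both. It read 128, 114, 125 and 108 CPM in D1 Con, 138, 126, 127 and 119.7 CPM in D1 Res, and 130.1, 120.4, 123, 117 and 113 CPM in D1 Sus. In D2 IPs it read 128, 124, 125, 130.2 and 128 CPM in Con, 118, 121, 124, 121 and 115 CPM in Res, and 123, 120.2, 136, 125 and 124 CPM in Sus. Res libraries were on average higher than Con in D1 IPs, with overlap, and all 5 D2 Res libraries were lower than all 5 D2 Con libraries. How many of all genes separate in D2 in this way was not counted. Neither change passed alone, at 0.11 ± 0.05 in D1 and -0.08 ± 0.05 in D2. Their difference was 0.19 ± 0.07 (95% interval 0.04 to 0.34, adjusted p = 0.9995), and that of the Sus against Res changes was -0.15 ± 0.07 (-0.30 to -0.01, adjusted p = 0.9997). Leaving out 1 library brought in Adcy5 (0.21, without replicate 1 of D1 Con), Adcy8 (0.47, without replicate 3 of D2 Con) or Adcy9 (0.19, without replicate 1 of D2 Con) for Res against Con, and Adcy9 (0.19, without replicate 1 of D2 Con) for Sus against Con.

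In the inputs, stress gave 0 called cyclases of 8 by edgeR in Sus against Con, Res against Con and Sus against Res, against 4.51%, 3.25% and 5.47% of genes at the unadjusted limit and 0, 0 and 0 at the adjusted limit. DESeq2 gave 0 in each as well. Adcy8 came nearest, at 0.28 ± 0.16 (95% interval -0.05 to 0.61, adjusted p = 0.979) for Sus against Con. It passed without replicate 2 of the D1 Con inputs (0.35) or replicate 3 of the D2 Sus inputs (0.35), and without the latter so did Adcy7 for Sus against Con (0.49) and Adcy1 for Sus against Res (-0.39). Adcy6 passed for Res against Con without replicate 2 of the D2 Res inputs (0.15). The highest Adcy8 value in the 18 inputs, 22.4 CPM, was in replicate 1 of the D2 Sus inputs, which also had the highest Adcy7 (14.6 CPM) and the lowest summed cortical markers (66.4 CPM).

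The third question was which cyclases are richer on tagged ribosomes than in the whole tissue. In control mice, Adcy3, Adcy5 and Adcy9 were higher in IPs of both lines, and Adcy6 and Adcy7 were lower in both. Adcy1, Adcy2 and Adcy8 were lower in D2 IPs, and in D1 IPs they were not called. The count was 5 of 8 for D1, against 70.4% of 14922 genes called, and 8 of 8 for D2, against 71.7%, so a call as such is common here. The median of the 8 was -0.05 in D1 and -0.65 in D2, and that of all genes was -0.02 and -0.05.

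Adcy3 had the largest rise of the 8 genes in D1 and, by a margin within the SE of Adcy5, in D2. It read 128, 114, 125 and 108 CPM in D1 Con IPs against 71.0, 67.3 and 66.9 CPM in their inputs (log2 change 0.79 ± 0.07, adjusted p = 4.94e-09), and 124 to 130.2 CPM in D2 Con IPs against 63.6, 61.5 and 70.7 CPM (0.98 ± 0.07, adjusted p = 1.92e-10). The D1 and D2 IPs of all stress groups stood above all inputs of their line for Adcy3, Adcy5 and Adcy9. The share of all genes that separate in this way was not counted. With 70.4% and 71.7% of genes called in controls, such separation may be common. Adcy5 rose by 0.57 ± 0.11 (log2, adjusted p = 0.000105) in D1, from 975, 763 and 747 CPM in the inputs, and by 0.96 ± 0.10 (adjusted p = 1.57e-07) in D2, from 702, 735 and 824 CPM. Adcy9 rose by 0.49 ± 0.08 (adjusted p = 2.83e-05) in D1 and by 0.58 ± 0.08 (adjusted p = 2.79e-06) in D2.

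Adcy7 was the most depleted of the 8. It read 2.89, 3.83, 3.99 and 3.31 CPM in D1 Con IPs against 7.18, 9.20 and 6.58 CPM in inputs, and 2.61, 2.13, 2.36, 3.69 and 3.14 CPM in D2 Con IPs against 5.72, 8.34 and 8.05 CPM. The groups did not overlap, and the log2 change was -1.13 ± 0.19 (adjusted p = 4.05e-05) in D1 and -1.38 ± 0.19 (adjusted p = 2.88e-06) in D2. Adcy6 fell by 0.64 ± 0.14 (log2, adjusted p = 0.000427) in D1 and by 0.96 ± 0.13 (adjusted p = 3.65e-06) in D2, again with no overlap in either line.

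Adcy2 read 82.4, 99.7 and 99.8 CPM in D1 Con inputs, close to the D1 Con IPs given before (log2 change -0.01 ± 0.10, adjusted p = 0.955, 95% interval -0.21 to 0.20). In D2 Con inputs it read 110.0, 103 and 95.9 CPM, above every D2 Con IP (-0.82 ± 0.09, adjusted p = 2.95e-07). Adcy1 changed by -0.09 ± 0.17 (adjusted p = 0.641) in D1 and by -0.70 ± 0.16 (adjusted p = 0.000916) in D2, and Adcy8 by -0.20 ± 0.19 (adjusted p = 0.351) and -0.60 ± 0.19 (adjusted p = 0.00765). The D2 call of Adcy8 was lost without replicate 1 of the D2 Con inputs (adjusted p = 0.0563). The D1 and D2 changes from input were not tested against each other. Cell markers moved as well: all 6 astrocyte, 6 oligodendrocyte, 6 microglia and 4 endothelial genes were lower in IPs of both lines, and the 3 cortical genes were lower in D2 IPs (3 of 3 called, median log2 change -1.88). In D1 IPs edgeR called 0 of these 3 at an adjusted p and 0 of 3 at an unadjusted p under 0.05 (median 0.75). Their part in the cyclase changes was not tested.

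**Figure D4:**
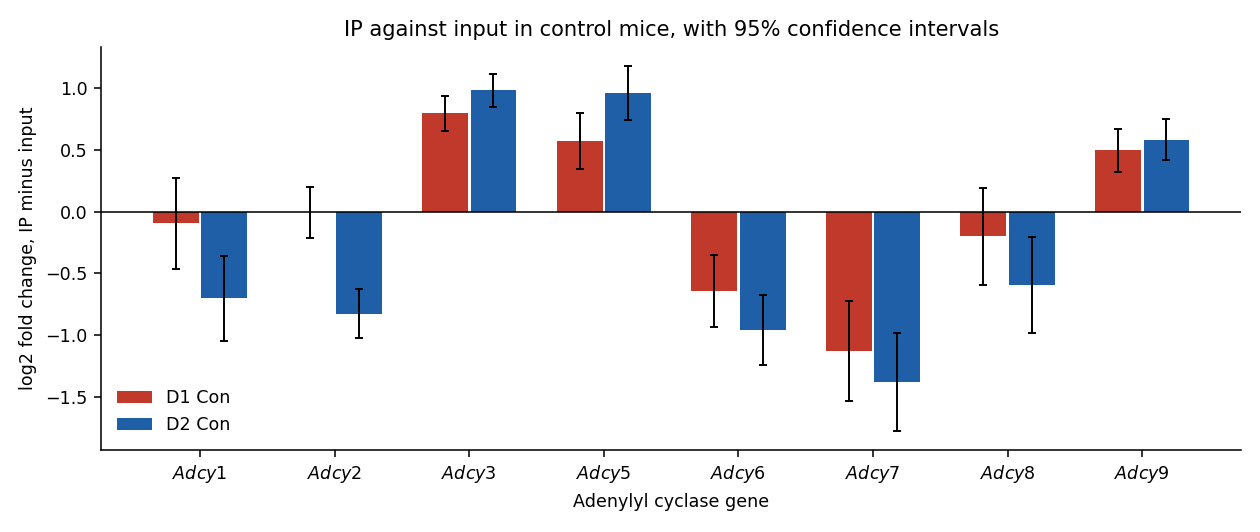
Log2 fold change between IP and input in control mice for each cyclase, D1 (red, 4 IPs and 3 inputs) and D2 (blue, 5 IPs and 3 inputs), with 95% confidence intervals. Adcy3, Adcy5 and Adcy9 are above 0 and Adcy6 and Adcy7 below 0 in both lines, and the D1 bar of Adcy2 is at -0.01.

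The fourth question concerned D1 IPs of control mice labelled as knockouts of Sirt1, a NAD-dependent deacetylase. Sirt1 itself read 13.1, 16.6, 14.8 and 14.4 CPM in D1 Con and 15.2, 16.2, 13.2 and 10.2 CPM in the libraries labelled Sirt1-KO, scaled within the table that holds both. The groups overlapped, and the log2 difference was -0.10 ± 0.13 (95% interval -0.39 to 0.19, adjusted p = 0.768), so counts over the whole gene did not show a loss. Which exons the floxed allele removes is not given in the sources used here, and gene counts do not resolve single exons. The D1 Con libraries are those of the earlier comparisons, so results that use them are not independent of each other. Whether both groups were prepared and sequenced together is not given in the sources used here, and 1 group has no stated age. A difference of batch or age cannot be told apart from the Sirt1-KO label.

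Adcy7 was lower in the libraries labelled Sirt1-KO and was the 1 cyclase of 8 called at an adjusted p under 0.05, against 1.66% of 13626 genes. It was also the 1 called with a fold change over 1.5, against 0.749%. It read 2.73, 3.63, 3.78 and 3.15 CPM in D1 Con and 1.54, 1.42, 1.30 and 1.72 CPM under the Sirt1-KO label, with no overlap, on 81 to 117 and 37 to 44 counts each. The share of all genes without overlap in this comparison was not counted. The log2 difference was -1.16 ± 0.18 (adjusted p = 0.0146), a fold of 0.449. The adjusted p rose to 0.0625 without replicate 3 of D1 Con and to 0.0545 without replicate 3 of the libraries labelled Sirt1-KO, at log2 differences of -1.09 and -1.13.

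Adcy1, Adcy2, Adcy5 and Adcy6 passed at an unadjusted p only. Adcy2 read 69.9, 100.1, 91.2 and 93.7 CPM in D1 Con and 116, 124, 132 and 93.4 CPM in the libraries labelled Sirt1-KO (log2 difference 0.39 ± 0.12, adjusted p = 0.119). Adcy5 read 1403, 1075, 1059 and 1132 CPM against 900.5, 856, 831 and 1109 CPM (-0.34 ± 0.11, adjusted p = 0.134). In both genes, replicate 5 of the libraries labelled Sirt1-KO lay nearest to the D1 Con libraries, and without it both were called (adjusted p = 0.0170 each). Adcy1 differed by 0.34 ± 0.13 (adjusted p = 0.208) and Adcy6 by 0.35 ± 0.15 (adjusted p = 0.247), while Adcy3, Adcy8 and Adcy9 had adjusted p of 0.602, 0.753 and 0.295. DESeq2 called 3 of 8, Adcy2 (adjusted p = 0.0325), Adcy5 (adjusted p = 0.0439) and Adcy7. It called 741 of all genes, against 226 by edgeR.

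The summed cortical markers were 347, 965, 664 and 658 CPM in D1 Con and 1169, 1396, 1492 and 786 CPM in the libraries labelled Sirt1-KO, where replicate 5 was again the one within the D1 Con range. None of the 3 had a mean of 0 in either group. By edgeR, 0 of 3 were called at an adjusted p and 3 of 3 at an unadjusted p under 0.05. Their median log2 difference was 0.89. The summed markers shared by medium spiny neurons ran from 4477 to 5783 CPM in D1 Con and from 3322 to 4811 CPM in the libraries labelled Sirt1-KO, with 0 of 5 called (median -0.32). Of the GABAergic interneuron markers, 2 of 5 were higher in the libraries labelled Sirt1-KO, and of the cholinergic markers 1 of 4 tested was lower. Of the 4 markers of D1-MSNs, 1 was lower there (adjusted p under 0.05, median log2 difference of the 4 -0.34). The part of these in the cyclase differences was not tested.

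**Figure D5:**
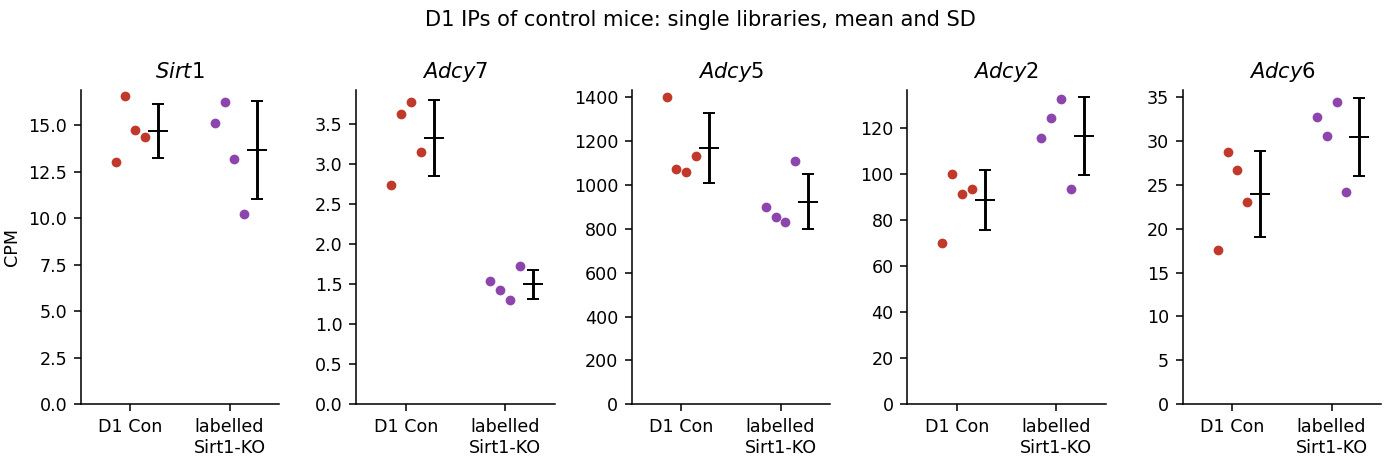
CPM of Sirt1, Adcy7, Adcy5, Adcy2 and Adcy6 in 4 D1 Con libraries (red) and 4 libraries labelled Sirt1-KO (purple), with mean and SD beside them (y axes from 0). Adcy7 separates the groups (2.73 to 3.78 against 1.30 to 1.72 CPM), and Sirt1 overlaps.

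The rest of the pathway was read from a list of 62 genes for G protein subunits, protein kinase A, cAMP phosphodiesterases and regulators of cyclases. The list was chosen with earlier results of these data known. Its shares of called genes, here and in the comparisons below, are therefore a description. Set beside the shares of all genes, they cannot test whether the pathway is enriched. Between D1 and D2 IPs, 27 of the 59 tested were called in Con (10 higher in D1, 17 lower), 23 in Res (9 and 14) and 27 in Sus (12 and 15), which is 45.8%, 39.0% and 45.8% of the list, against 14.0%, 17.5% and 17.6% of all genes. Higher in D1 Con were Gnb4, a G protein β subunit (log2 difference 0.94 ± 0.08), and Pkib, an inhibitor of protein kinase A (1.97 ± 0.25). Lower were Pde4b, a cAMP phosphodiesterase (-0.52 ± 0.06), and Gnb5, the β subunit that pairs with RGS proteins (-0.46 ± 0.06). In Res and Sus, Gnb4 again led the higher genes with 0.81 ± 0.08 and 1.00 ± 0.08, followed by Prkar1b, a regulatory subunit of protein kinase A (0.37 ± 0.05 and 0.36 ± 0.05). Pde4b (-0.50 ± 0.06 and -0.54 ± 0.06) and Gnb5 (-0.40 ± 0.06 and -0.50 ± 0.06) led the lower ones.

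Against input, 49 of 60 list genes were called in D1 (34 higher in IP, 15 lower) and 51 of 60 in D2 (33 and 18), which is 81.7% and 85.0% of the list, against 70.4% and 71.7% of all genes. Gnb5 (1.09 ± 0.07 in D1, 1.63 ± 0.07 in D2) and Gnb2 (1.03 ± 0.07 and 1.27 ± 0.07) led the higher genes on the log2 scale. The phosphodiesterase gene Pde8a (-3.68 ± 0.20 and -3.52 ± 0.19) and the inhibitory subunit gene Gnai2 (-0.80 ± 0.06 and -0.80 ± 0.06) led the lower ones. In the libraries labelled Sirt1-KO, 2 of 58 were called, both lower: the phosphodiesterase gene Pde1c (-0.60 ± 0.12, adjusted p = 0.0366) and Pkia, an inhibitor of protein kinase A (-0.36 ± 0.08, adjusted p = 0.0386). That is 3.45% of the list, against 1.66% of all genes.

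For stress, list genes were called by edgeR at the unadjusted limit and 0 at the adjusted one. In D1 IPs, 6 of 59 (10.2%, against 5.34% of all genes) were lower in Sus than in Con, led by Gnb5 (-0.16 ± 0.06) and Ric8b, a chaperone of G protein α subunits (-0.14 ± 0.06). In D1 Sus against Res 4 were higher, led by Pde7a (0.19 ± 0.07) and Gng2 (0.30 ± 0.14), and 2 lower, Gng7 (-0.20 ± 0.08) and Gnb2 (-0.12 ± 0.06), together 10.2% of the list against 4.23% of all genes. In D2 Sus against Con, Gng2 was higher (0.35 ± 0.14) and Gnb2 (-0.13 ± 0.05) and Gnb5 (-0.13 ± 0.06) were lower, 5.08% of the list against 3.68% of all genes. The other IP comparisons called 0. The interactions called 0 for Sus against Con, Pkib for Res against Con (-0.81 ± 0.35) and Pde7a for Sus against Res (0.23 ± 0.10), 1.69% of the list each, against 2.36% and 2.03% of all genes. Inputs called 2 of 60 (3.33%) in each comparison, against 4.51%, 3.25% and 5.47% of all genes: Pde7a (0.14 ± 0.05) and Prkar2a (0.10 ± 0.04) for Sus against Con, Pkia (-0.12 ± 0.04) and Gnai3 (-0.13 ± 0.06) for Res against Con, and Akap7 (0.15 ± 0.06) and Pkia (0.09 ± 0.04) for Sus against Res.

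Genes with the pattern most like each cyclase were sought by Pearson r of log2 CPM over the 46 IPs and inputs, limited to genes averaging 50 counts or more. These libraries share line, IP or input and depth, so r is a description. Adcy5 was closest to Scn4b (0.99), Pde1b (0.99) and Bcr (0.98). Adcy3 was closest to Nol6, Map1s and Cog7 (0.99 each), and Adcy9 to Atp2b2 (0.97), Phf24 (0.97) and Lmtk2 (0.97). Adcy2 was closest to Kcnc4 (0.98), Sept9 (0.97) and Efhd2 (0.97), and Adcy1 to Syt7 (0.95), Plch2 (0.94) and Nsmf (0.93). Adcy6 was closest to Dock9 (0.96), Hivep1 (0.96) and Farp1 (0.95), Adcy7 to Itih3 (0.93), Lgals8 (0.93) and Dgkq (0.93), and Adcy8 to Scn1a (0.87), Optn (0.87) and Plcb4 (0.86). Over the 28 IPs alone, where the step from input to IP is absent, 4 of these 24 genes were again among the closest 3. There Adcy5 was closest to Smpd3 (0.95), Spata13 (0.93) and Gnal (0.93), the last encoding the stimulatory α subunit of the striatum.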

How the data were processed

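RNA-seq of NAc RiboTag IPs and inputs was read from 2 tables of raw counts per gene symbol and library. The deposited counts were made by the authors, who trimmed reads with cutadapt, checked them with FastQC, aligned them to mm10 with STAR and counted them per gene with HTSeq, which the labels of the libraries labelled Sirt1-KO do not list. Versions, annotation and the strand setting of the counting are not given in the sources used here. The 4 D1 Con libraries stand in both tables, with the same values. Entries that name no gene held 18.0% to 28.3% of counts in IPs and 35.9% to 40.0% in inputs and were left out, as were 2 columns that match no sample description used here. No pair of the 76 replicate pairs was a duplicate.

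From the counts, edgeR 4.0.16 in R 4.3.3 gave TMM-normalized counts scaled to library size (CPM) and quasi-likelihood tests, with genes kept by filterByExpr (minimum count 10, minimum total 15) and Benjamini-Hochberg adjustment over all genes of a model. The 4 models held the 28 IPs (a mean per line and stress group), the 15 control IPs and inputs, the 18 inputs (line and stress), and the libraries labelled Sirt1-KO with D1 Con. D1 against D2, IP against input and the libraries labelled Sirt1-KO were called at an adjusted p under 0.05, and stress at an unadjusted p under 0.05, the rule of the study, with adjusted counts beside it. Levels between genes are CPM per kb of exon union. Relations used log2(CPM + 0.5), Python 3.11.15, numpy 2.4.6, scipy 1.17.1 and pandas 2.3.3, and figures matplotlib 3.10.9. Alternatives were RLE scaling, other filters, DESeq2 1.42.0 (unshrunken), fits to the compared libraries alone, a replicate block, other call limits, and each library left out in turn.

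Named were the 8 cyclases, Sirt1, Drd1 and Drd2, for each comparison up to 2 called genes of the cAMP list in each direction by smallest p, and the 3 genes most like each cyclase. Marker genes of other cells were given as lists. A gene of the cortical list is not reported here, and the list was used without it. The members and lists were chosen with earlier results of these data known. Inputs are what remained of a homogenate after the IP was taken, so an IP and its input of the same number share mice. Deviations from group means correlated between them from -0.01 to 0.32 in D1 Con and from -0.07 to -0.04 in D2 Con (3 pairs each). The scripts were tested on simulated counts.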

Additional observations from a re-analysis of the deposited data

Results flagged for a closer look

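Adcy3, a cyclase known from olfactory neurons and neuronal cilia, was picked out because its response to stress differed between D1 and D2 IPs by an interaction test. The Res against Con change differed by 0.19 on the log2 scale (D1 minus D2, 95% interval 0.04 to 0.34), and the Sus against Res change by -0.15 (-0.30 to -0.01). Both share the Res libraries, and neither passed adjustment over all genes by edgeR (adjusted p = 0.9995 and 0.9997). The second was lost without any one of 7 libraries, down to a size of -0.11 without replicate 1 of D1 Res, while the first kept its call without any one of 18. Of 63 groups of 4 or 5 libraries, over the 8 cyclases and Sirt1, 0 held a library far from the others by Dixon's limit, where chance gives about 1 in 20.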

How the results depend on the processing

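The call of Adcy2 between D1 and D2 IPs was kept in all 3 stress groups under every alternative run. With a fold change over 1.5 required, 1 cyclase was called in D1 against D2 of Con, 1 in Sus and 3 in D1 IP against input. All genes called then numbered 709, 785 and 790 (from 1990, 2487 and 2497) in D1 against D2 of Con, Res and Sus, 6179 and 6361 (from 10510 and 10704) in D1 and D2 IP against input, and 102 (from 226) in the libraries labelled Sirt1-KO. Other settings moved D1 stress counts from 0 to 1: fits to the libraries compared alone (Sus against Con, Res against Con and Sus against Res, 1 each), the filter at a mean of 50 counts (Res against Con, 1), and all genes with at least 1 count or DESeq2 (Sus against Res, 1). In the main fit, 759, 300 and 601 of all genes were called in these 3 comparisons. Under these settings and the replicate block below, counts of all genes are given only where they moved by more than 1.5 times. With adjusted p, the D2 counts for Sus against Con and Sus against Res and the interaction counts for Res against Con and Sus against Res were 0, and the last was 0 also with all genes of at least 1 count. DESeq2 called 3 in the libraries labelled Sirt1-KO (741 of all genes) and, between the lines' inputs, 0 cyclases and 14 of all genes (from 3). With all genes of at least 1 count, those called went from 300.0 to 478 (D1 Res against Con), 236 to 447 (D2 Sus against Res), 226 to 378 (libraries labelled Sirt1-KO), and 259, 335 and 289 to 453, 520.0 and 513 (interactions), the first of which was 172 with a mean of 50 counts. The likeness list kept 4 of 24 genes in IPs alone.

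Replicate numbers of groups other than an IP and its input share only a number. As a replicate block they gave 4 cyclases for D1 against D2 of Con, 1 for D1 Res against Con, and 5 for the libraries labelled Sirt1-KO, where all genes called went from 226 to 1618. Without the block, 1990 and 300 of all genes were called in D1 against D2 of Con and in D1 Res against Con. All genes called under it also went from 430.0 to 690.0 in D2 Res against Con and from 335 to 568 in the interaction for Res against Con. With an IP and its own input as the block, 5 and 8 cyclases were called, as without it, and no other count of cyclases changed. Leaving out 1 library at a time, D1 against D2 gave 1 to 5 cyclases in Con, 3 to 3 in Res and 3 to 4 in Sus. All genes called then numbered 1171 to 2308, 1712 to 2428 and 1782 to 2637. D1 stress gave 0 to 2 cyclases in each of 3 comparisons. All genes there numbered 482 to 921 (Sus against Con), 203 to 488 (Res against Con) and 488 to 644 (Sus against Res). D2 stress gave 0 to 1 cyclases (Sus against Con), 0 to 0 (Res against Con) and 0 to 1 (Sus against Res). All genes called were 373 to 682, 331 to 590 and 210 to 535. In the same order, interactions gave 0 to 1, 1 to 2 and 0 to 1 cyclases. There all genes called were 218 to 427, 274 to 514 and 252 to 421. IP against input gave 5 to 5 cyclases in D1 and 7 to 8 in D2. All genes called were 9877 to 10260 and 10020 to 10641. The lines' inputs gave 0 to 0 cyclases, with 3 to 4 of all genes. Input stress gave 0 to 2, 0 to 1 and 0 to 1 cyclases. All genes called there were 546 to 1286, 405 to 562 and 651 to 1579. The libraries labelled Sirt1-KO gave 0 to 3 cyclases, with 41 to 1020 of all genes. The cause of these moves was not tested. Of single cyclases, 0 called values turned sign, and 177 values without a call did, over 55 of 152 comparisons of a gene. Adcy7, at 37 to 228 counts per IP, is the member most limited by depth.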
